A study of Homo sapiens with 6 samples.

Results

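Genes of secreted proteins that many cells release under stress were looked up by symbol, namely FGF21, GDF15, STC2, STC1, ADM2 and INHBE. Rows for 5 of the 6 were found among the 16407 genes of the deposited table, and STC1 is not analysed here. All 5 passed the filter on low counts in a table of 12548 genes tested. The cells were C666-1, a human nasopharyngeal carcinoma line, kept for 24 h in 1 of 2 media with 3 libraries each. Complete medium was an essential amino acid medium with 0.4 mM serine, 0.4 mM glycine, 4.5 g/L glucose and 10% dialyzed fetal bovine serum, and the deprived medium had the same make-up with serine and glycine left out. All values come from this one line. Nothing in the labels tells if separate cultures were sequenced, and p-values therefore rest on a spread among libraries that could be technical.

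FGF21 and GDF15 are hormones made by stressed cells: FGF21 acts on cells that carry an FGF receptor together with the co-receptor beta-Klotho, and GDF15 acts on the hindbrain through GFRAL and RET. STC2, a stanniocalcin, blocks the protease PAPPA and so keeps insulin-like growth factors bound. ADM2, also called intermedin, signals through the calcitonin receptor-like receptor, and INHBE encodes the subunit of activin E. When an amino acid is short or proteins misfold, kinases of eIF2 alpha slow translation and allow the transcription factor ATF4 to be made. ATF4 binds C/EBP-ATF response elements, and FGF21, GDF15, STC2, ADM2 and INHBE are all described as genes that it raises, while GDF15 is also a target of p53.

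The 250 bases before the gene start are shown for the gene that changed most and for the 2 most abundant genes, so that the letters can be set beside the changes below. Capitals mark matches on either strand to TGATGNAAN (the core of the C/EBP-ATF response element), TGACGTCA (the cAMP response element), TGANTCA (the AP-1 site), CACGTG (the E-box), CCAAT or TATAAA. Sequences are from RefSeq on GRCh38.p14, and each is written in the direction of transcription.
FGF21, chr19:48755274-48755523, plus strand: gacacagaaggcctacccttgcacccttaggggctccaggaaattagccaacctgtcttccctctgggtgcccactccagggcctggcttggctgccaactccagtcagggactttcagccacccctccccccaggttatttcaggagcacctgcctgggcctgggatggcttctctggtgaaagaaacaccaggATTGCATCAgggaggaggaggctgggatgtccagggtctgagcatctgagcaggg
STC2, chr5:173328415-173328664, minus strand: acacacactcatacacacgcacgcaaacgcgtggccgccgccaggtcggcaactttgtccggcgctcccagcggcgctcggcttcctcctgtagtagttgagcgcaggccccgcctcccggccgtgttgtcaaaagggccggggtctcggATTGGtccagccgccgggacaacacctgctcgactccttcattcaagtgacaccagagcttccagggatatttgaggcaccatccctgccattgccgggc
GDF15, chr19:18385908-18386157, plus strand: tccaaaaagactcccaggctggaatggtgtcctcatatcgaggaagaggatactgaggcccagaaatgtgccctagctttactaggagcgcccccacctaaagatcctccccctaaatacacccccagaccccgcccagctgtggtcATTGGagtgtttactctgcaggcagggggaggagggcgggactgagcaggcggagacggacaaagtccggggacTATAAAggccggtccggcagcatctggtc

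The only match in the FGF21 window was TGATGCAAT, read on the minus strand from base -55 to base -47 counted from the gene start. A match to TGATGNAAN was present in 1100 of 35116 RefSeq promoters of the same length, or 3.13%. The STC2 window held CCAAT on the minus strand from -100 to -96, and the GDF15 window held it on the minus strand from -103 to -99 and TATAAA from -29 to -24. CCAAT was present in 32% of the promoters and TATAAA in 10.7%. The ADM2 window held none of the 6 motifs. TGACGTCA, TGANTCA and CACGTG, found in 1.65, 6.57 and 6.34% of promoters, had no match in the 4 windows read. A match describes the letters of the window and is not a measured binding site, and no overlap between motifs was found among these matches.

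FGF21 fell without serine and glycine and STC2 fell by a smaller amount, while GDF15, ADM2 and INHBE were not called. Of the 5 genes, 2 were lower and 0 were higher at an adjusted p under 0.05. Over all 12548 genes tested, 6.95% were called, 4.22% lower and 2.73% higher. By unadjusted p under 0.05 edgeR had 3 of the 5 genes lower and 0 higher, where 14.4% of all genes were lower and 12.9% higher. After adjustment DESeq2 and limma voom each gave 2 lower and 0 higher, where 6.57 and 3.9% of all genes were called lower and 4.42 and 2.46% higher. These shares are the background for the counts of the gene lists below as well. The call depended on the libraries: edgeR called 0 genes in all, and therefore 0 of these 5, when replicate 2 or 3 of either medium was left out. In those 4 fits 2 to 4 of the 5 genes were lower at an unadjusted p under 0.05, a threshold that 9.19 to 12.1% of all genes passed in that direction, and these fits share their libraries with the full one.

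**Figure D1:**
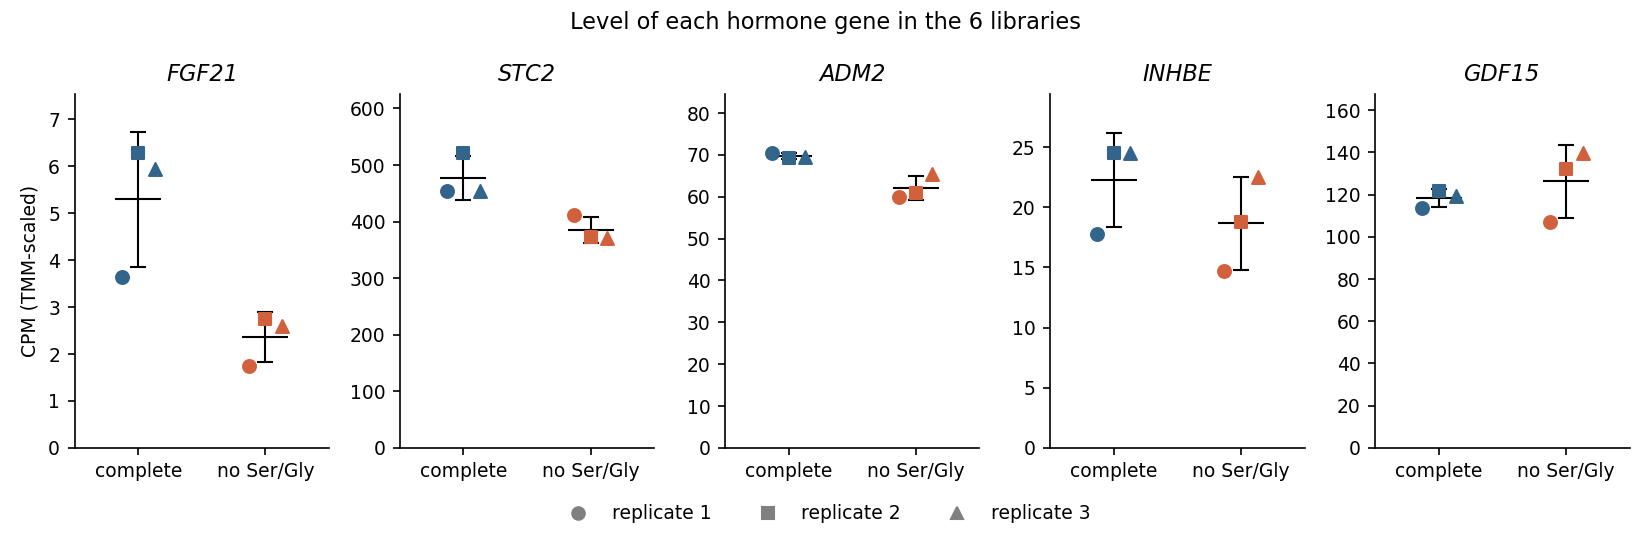
CPM (TMM-scaled, linear axis from 0) of each hormone gene in each library, with complete medium in blue and the medium without serine and glycine in orange. Bars are the mean and SD of 3 libraries and the marker shape gives the replicate number. FGF21, STC2 and ADM2 do not overlap between media, and the libraries numbered 1 are the lowest of their medium for FGF21, INHBE and GDF15.

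FGF21 (NCBI Gene 26291, chromosome 19, 48755524 to 48758330 on GRCh38.p14) was the rarest of the 5 and the one with the largest change. In complete medium its level was 3.65, 6.29 and 5.94 CPM in replicates 1 to 3, from 61, 104 and 99 reads. Without serine and glycine it was 1.75, 2.75 and 2.59 CPM, from 30, 46 and 44 reads. Every deprived library was below every complete one, and replicate 1 was the lowest in both media. The nearest pair across media was replicate 1 of complete medium, with a Poisson interval of 2.79 to 4.68 CPM, and replicate 2 of the deprived medium, with 2.01 to 3.66 CPM, so these 2 libraries overlap within counting error. Means were 5.29 ± 1.44 (SD, n = 3) and 2.36 ± 0.54 CPM. The fitted log2 change was -1.16 (SE 0.25, adjusted p = 0.0314), a 2.24-fold lower level. It was the fifth largest fall among the 529 genes called lower.

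Compared number by number, FGF21 was lower by nearly the same amount each time. The log2 ratio of deprived to complete medium was -1.06 for the libraries numbered 1, and -1.20 for both of the other numbers. With the replicate number as a block the SE was 0.16 and the log2 change -1.16 (adjusted p = 0.00185). Leaving out complete replicate 2 or 3 raised the adjusted p to 0.153 and 0.116, and leaving out deprived replicate 2 or 3 raised it to 0.0793 and 0.0970. On log2 TPM with a pseudocount of 1 limma gave -0.94 with an adjusted p of 0.0535. RNA of the whole culture was measured, so fewer cells with FGF21 transcripts and fewer transcripts per cell cannot be told apart.

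The neighbouring gene of FGF21 was also read, since its start lies close by. FUT1, a fucosyltransferase gene on the opposite strand, has its annotated start 166 bases from the start of FGF21 and is transcribed away from it. The FGF21 window printed above therefore includes the first bases of FUT1. FUT1 levels were 11.8 ± 2.66 CPM with serine and glycine and 9.08 ± 0.58 CPM without (log2 change -0.38, adjusted p = 0.168). The 2 annotated genes do not overlap, and the part of FUT1 reads in the FGF21 values was not tested.

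GDF15 (NCBI Gene 9518, chromosome 19, 18386158 to 18389176), a distant TGF-beta relative, was not called. Its level in complete medium was 113.5, 121.9 and 119.4 CPM. Without serine and glycine it was 106.9, 132.3 and 139.9 CPM. The deprived libraries lay on both sides of the complete ones: replicate 1 was below all 3 and replicates 2 and 3 were above all 3. The log2 change was 0.10 (SE 0.093, adjusted p = 0.541). Without replicate 1 of the deprived medium it was 0.20 (adjusted p = 0.0473) and GDF15 was called higher, and without both libraries numbered 1 it was 0.18 (adjusted p = 0.0244). Calls rose over all genes in these fits, with 5.99 and 13.5% called higher, against 2.73% in the main fit. The number by number log2 ratios were -0.09, 0.12 and 0.23, and the block did not change the call. PGPEP1, a neighbour that ends 16208 bases before GDF15, was called higher (log2 change 0.37, adjusted p = 0.0382) and is named after its values were seen.

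STC2 (NCBI Gene 8614, chromosome 5, 173314723 to 173328414, minus strand) fell modestly at a high level. Complete medium gave 453.8, 522.0 and 454.4 CPM. The deprived medium gave 411.1, 373.6 and 370.4 CPM, so the media did not overlap, and the nearest libraries were those numbered 1. The log2 change was -0.31 (SE 0.078, adjusted p = 0.0444), a 1.24-fold lower level. Between 6256 and 8627 reads stood behind each value, so counting error was small beside the spread between libraries. Replicate 2 of complete medium stood above the other two of its group, and without it the log2 change was -0.24 (adjusted p = 0.181). The adjusted p was 0.116 when complete replicate 3 was left out, and 0.133 and 0.153 when deprived replicate 2 or 3 was. Scaling by library totals gave -0.28 and an adjusted p of 0.0533.

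ADM2 (NCBI Gene 79924, chromosome 22, 50481543 to 50486437) had the tightest CPM values in complete medium and was not called. It stood at 70.6, 69.3 and 69.5 CPM there and at 60.0, 60.9 and 65.5 CPM without serine and glycine. All values in complete medium lay within the Poisson interval of its replicate 2, 65.4 to 73.5 CPM, so they were closer than counting error. In TPM GDF15 was tighter relative to its mean, at 242.0 ± 2.94 against 33.1 ± 1.27 for ADM2. The media did not overlap, and the log2 change was -0.17 with an SE of 0.063 (adjusted p = 0.120). Estimated counts of ADM2 were not whole in 5 of the 6 libraries, as happens where reads are divided between features. The next gene, MIOX, starts 422 bases beyond ADM2 on the same strand and was at 1.04 ± 0.76 and 2.43 ± 1.42 CPM (log2 change 1.21, adjusted p = 0.262).

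INHBE (NCBI Gene 83729, chromosome 12, 57455307 to 57458025) followed the replicate number more than the medium. Its level was 17.8, 24.5 and 24.6 CPM in complete medium and 14.7, 18.8 and 22.5 CPM in the deprived medium. The media overlapped, because replicate 1 of complete medium lay below replicates 2 and 3 of the other group. Within each number the deprived library was lower, by log2 ratios of -0.27, -0.38 and -0.13. The log2 change was -0.25 (SE 0.17, adjusted p = 0.363). With the block the SE was 0.084 and the adjusted p 0.05003, just above the threshold. INHBC, its tandem relative 3245 bases upstream, was at 2.44 ± 0.53 and 3.20 ± 0.37 CPM (adjusted p = 0.270). A long non-coding RNA is annotated over 584 bases at the end of INHBE, and with no strand setting stated its reads cannot be told apart from those of INHBE.

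In all, 3 of the 5 genes (FGF21, STC2 and ADM2) did not overlap between media in the lower direction and 0 in the higher, beside 16.4% and 16.1% of all genes tested. With the block the count of called genes among the 5 stayed at 2 lower and 0 higher, while 24.3% of all genes were called, 13.2% lower and 11.1% higher. All 5 log2 changes kept their sign under every alternative that was run. These alternatives refit the same libraries or a part of them, so a kept sign is not separate support. For GDF15 the groups overlapped, and the libraries numbered 1 gave a log2 ratio of -0.09.

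**Figure D2:**
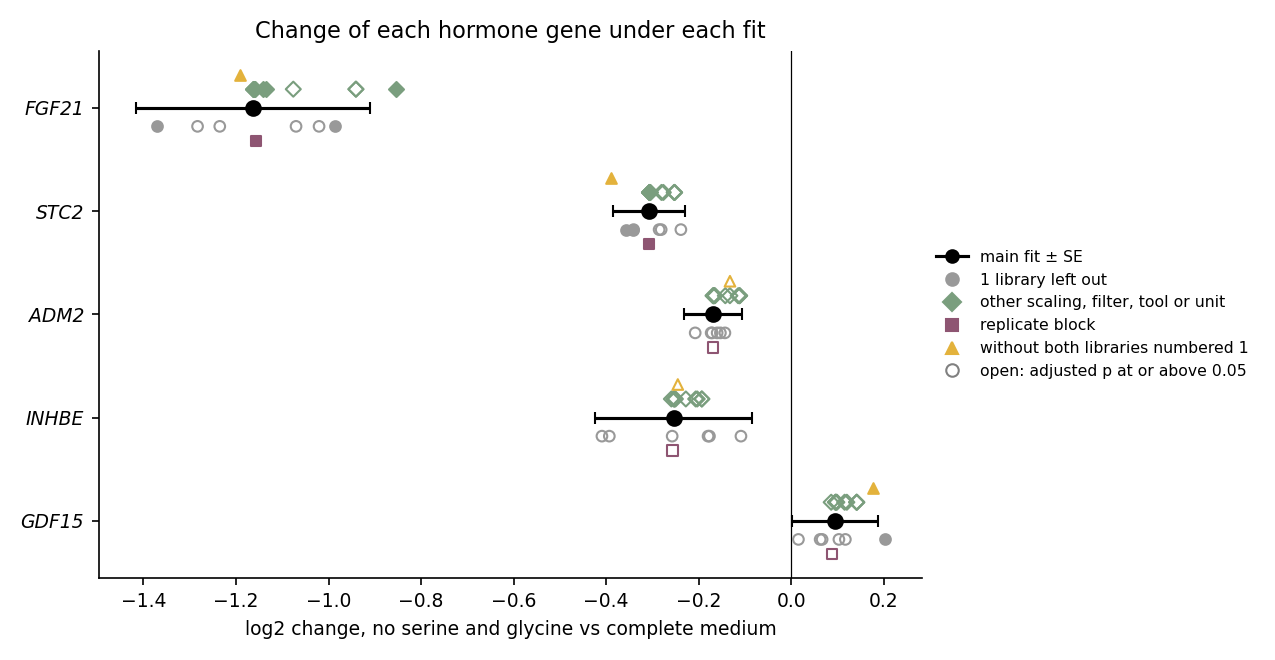
Log2 change of each hormone gene (x axis, deprived against complete medium) in the main edgeR fit with its SE (black) and under the 18 alternatives, with filled symbols where the adjusted p is under 0.05. FGF21 lies between -1.37 and -0.85, STC2 between -0.39 and -0.24, and GDF15 alone lies above 0.

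Levels per transcript length place the genes in another order than read counts. In TPM, GDF15 was at 242.0 ± 2.94 in complete medium and 267.9 ± 27.7 without serine and glycine, and STC2 at 227.4 ± 14.1 and 191.1 ± 17.8. GDF15 exceeded STC2 in each of the 6 libraries, although STC2 had more reads in each, 6256 to 8627 against 1834 to 2377. In complete medium the TPM ratio of GDF15 to STC2 was 1.07, 1.00 and 1.13, a gap within the spread, and in the deprived medium it was 1.12, 1.51 and 1.62. ADM2 followed at 33.1 ± 1.27 and 30.5 ± 1.06 TPM, INHBE at 19.3 ± 2.94 and 16.8 ± 3.02 TPM, and FGF21 at 9.35 ± 2.34 and 4.34 ± 0.85 TPM. From STC2 down, neighbours in this order did not overlap in any library of the same medium.

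Together the 5 genes summed to 519.3, 550.6 and 523.4 TPM in complete medium and to 497.1, 507.5 and 527.6 TPM in the deprived medium, so the sums overlapped. GDF15 made up 44.3 to 46.5% of the sum in complete medium and 47.8 to 55.3% in the deprived medium, and FGF21 1.28 to 2.002% and 0.678 to 0.977%. By rank from the top of the 14775 to 15038 genes listed above 0 TPM, GDF15 was between 528 and 712, STC2 between 673 and 954, and FGF21 between 8518 and 10752.

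Within each library FGF21 was lower relative to each of the other 4 genes in the deprived medium, and no ratio overlapped between media. The 4 ratios share the FGF21 values, which themselves did not overlap, so they restate that fall and are not separate results. The share of other gene pairs without overlap was not computed. The TPM ratio of FGF21 to GDF15 was 0.0279, 0.0447 and 0.0431 in complete medium and 0.0142, 0.0181 and 0.0160 without serine and glycine. The mean log2 ratio differed by -1.24 against GDF15, -0.84 against STC2, -0.98 against ADM2 and -0.89 against INHBE. An exact two-sided permutation test gave p = 0.1 for each, the smallest that 3 against 3 libraries allow, and 0.2 after Benjamini-Hochberg adjustment over the 10 pairs of genes. Of the other 6 pairs only GDF15 to ADM2 was free of overlap, at 6.92 to 7.61 in complete medium and 7.76 to 9.32 without serine and glycine (exact p = 0.1, adjusted 0.2).

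**Figure D3:**
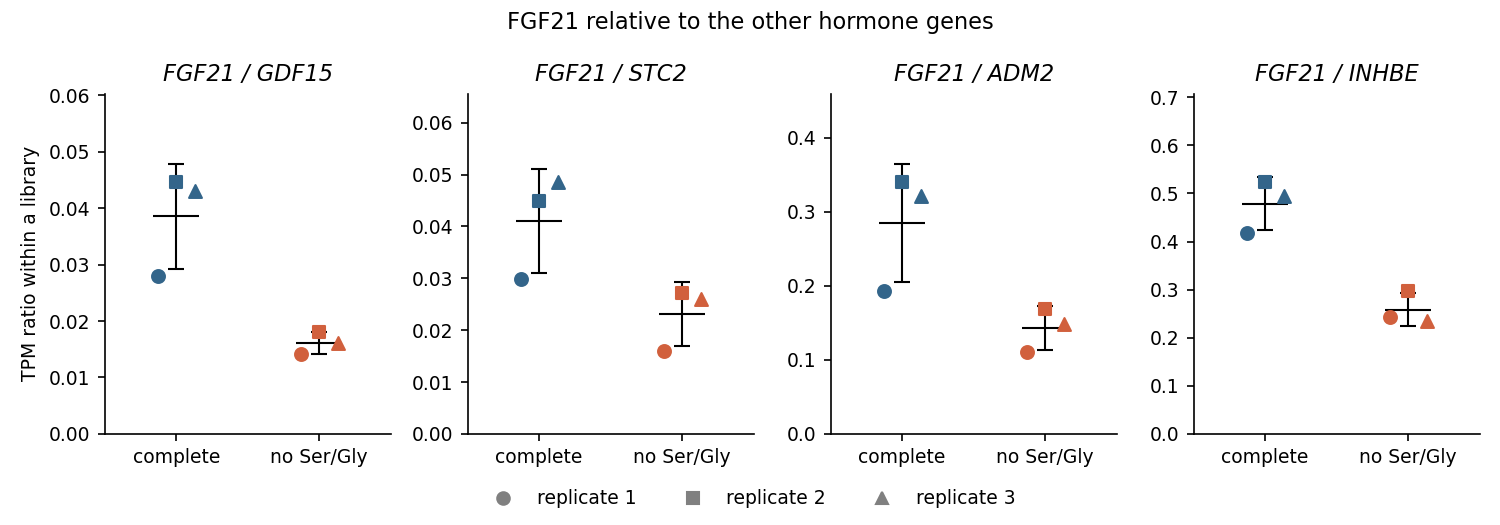
Ratio of FGF21 TPM to the TPM of each of the other 4 hormone genes within a library (linear axes from 0), with the mean and SD of 3 libraries and the replicate number as marker shape. In all 4 panels the deprived libraries (orange) lie below the complete ones (blue), as in FGF21 to GDF15 with at most 0.0181 against at least 0.0279.

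The genes nearest in pattern were found by the root mean square difference of centred log2 CPM over the 6 libraries, among 12060 genes with a mean of at least 1 CPM. FGF21 was nearest to KLHL35 at 0.18, SERPINB1 at 0.20 and MT1E at 0.20, where the median gene stood at 0.64. SERPINB1, an inhibitor of serine proteases, fell by 1.11 on the log2 scale (adjusted p = 0.0184), while KLHL35 and MT1E, a metallothionein gene, had log2 changes of -0.82 and -1.01 and adjusted p of 0.0536 and 0.0808. STC2 was nearest to MTHFD1L at 0.013, NARS2 at 0.021 and SMC2 at 0.024, with a median of 0.21. MTHFD1L, a mitochondrial folate enzyme, and SMC2, a condensin subunit, fell by 0.31 and 0.33 (adjusted p = 0.0340 and 0.0410), and NARS2, a mitochondrial tRNA synthetase, had a log2 change of -0.29 (adjusted p = 0.0509).

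For the genes that were not called the nearest genes were also not called, which the way of choosing them largely fixes. GDF15 was nearest to UBQLN2, RPL28 and PCF11, at 0.022, 0.025 and 0.026, ADM2 to PEX26, CLPTM1 and SOX13, at 0.022, 0.022 and 0.024, and INHBE to CDK7, ASMTL and TROAP, at 0.033, 0.035 and 0.052. Among the hormones themselves the closest pair was ADM2 and STC2 at 0.13, and the farthest was FGF21 and GDF15 at 0.64. These distances describe 6 libraries and carry no test. The same libraries give the log2 changes, so a near gene has a similar change by selection and adds no support.

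Receptor genes for these hormones were mostly scarce or not called. Of 20 genes listed, 16 were in the table and 9 were tested, with 1 higher and 0 lower. Unadjusted p was under 0.05 for 1 of the 9 in each direction, and DESeq2 gave 1 higher and 0 lower, limma voom 0 of either and the block 1 higher and 2 lower. The median log2 change of the 9 was 0.04, beside 0.00 for all genes tested. KLB, which encodes beta-Klotho, had mean levels of 0.0667 and 0.08 TPM and was too low to test, while FGFR1 was at 9.20 and 8.84 TPM (adjusted p = 0.612). FGFR3 gave -0.54 on the log2 scale (adjusted p 0.222, blocked 0.00884) and FGFR4, the main FGF receptor of hepatocytes, gave -0.33 (adjusted p 0.147, blocked 0.0322). FGFR2 was at 0.0167 and 0.0367 TPM.

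GFRAL, RET and RAMP3 are not analysed here. CALCRL, the receptor of ADM2, was at 0.04 and 0.05 TPM, and its partners RAMP1 and RAMP2 were at 0.173 and 0.07 TPM and at 0.16 and 0.16 TPM, all below the filter. ACVR1C, described as the receptor of activin E, was at 0.01 and 0.02 TPM. ACVR2B, a type II activin receptor, was the one called gene, at 15.6 ± 0.37 and 21.2 ± 2.80 CPM (log2 change 0.45, adjusted p = 0.0424). ACVR2A and ACVR1B gave 0.25 and -0.08 on the log2 scale (adjusted p of 0.200 and 0.536).

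Of 17 tested genes listed as partners in cleavage, trapping or clearance, 1 was lower and 0 higher, with a median log2 change of -0.16. Before adjustment 5 were lower and 1 higher at p under 0.05, limma voom gave 1 lower and 0 higher, and DESeq2 1 lower and 1 higher. With the block the counts were 6 lower and 2 higher. FSTL3, which binds activins, was the gene called lower, from 247.5 ± 27.8 to 192.8 ± 7.74 CPM (log2 change -0.36, adjusted p = 0.0339). FST, its relative, had a log2 change of 0.23 (adjusted p = 0.631).

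PAPPA, the protease that STC2 blocks, had levels of 9.71 ± 3.01 CPM with serine and glycine and 14.4 ± 4.75 CPM without (log2 change 0.57, adjusted p 0.210, blocked 0.00436). Its groups overlapped. PAPPA2 had a log2 change of -0.05 (adjusted p = 0.925). FURIN, a protease that matures TGF-beta relatives, gave 0.05 on the log2 scale (adjusted p = 0.695). FAP, which cuts the end of FGF21, was at 0.467 and 0.457 TPM and was not tested.

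None of the close relatives was called. Of 21 listed, 19 were in the table and 12 were tested, with 0 called in either direction by edgeR, DESeq2 or limma voom. Unadjusted, edgeR had 3 higher and 0 lower at p under 0.05, and with the block 3 were called higher and 0 lower. The median log2 change was 0.19. ADM, the paralog of ADM2, was at 17.6 and 17.2 TPM (log2 change -0.09, adjusted p = 0.668). The activin and inhibin genes INHBA, INHBB and INHA were at 0.00667 and 0.02, 0.943 and 1.15, and 2.38 and 3.96 TPM, and INHA had a log2 change of 0.67 (adjusted p = 0.131). INHBE thus had the highest mean TPM of these 4 subunit genes in both media.

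**Figure D4:**
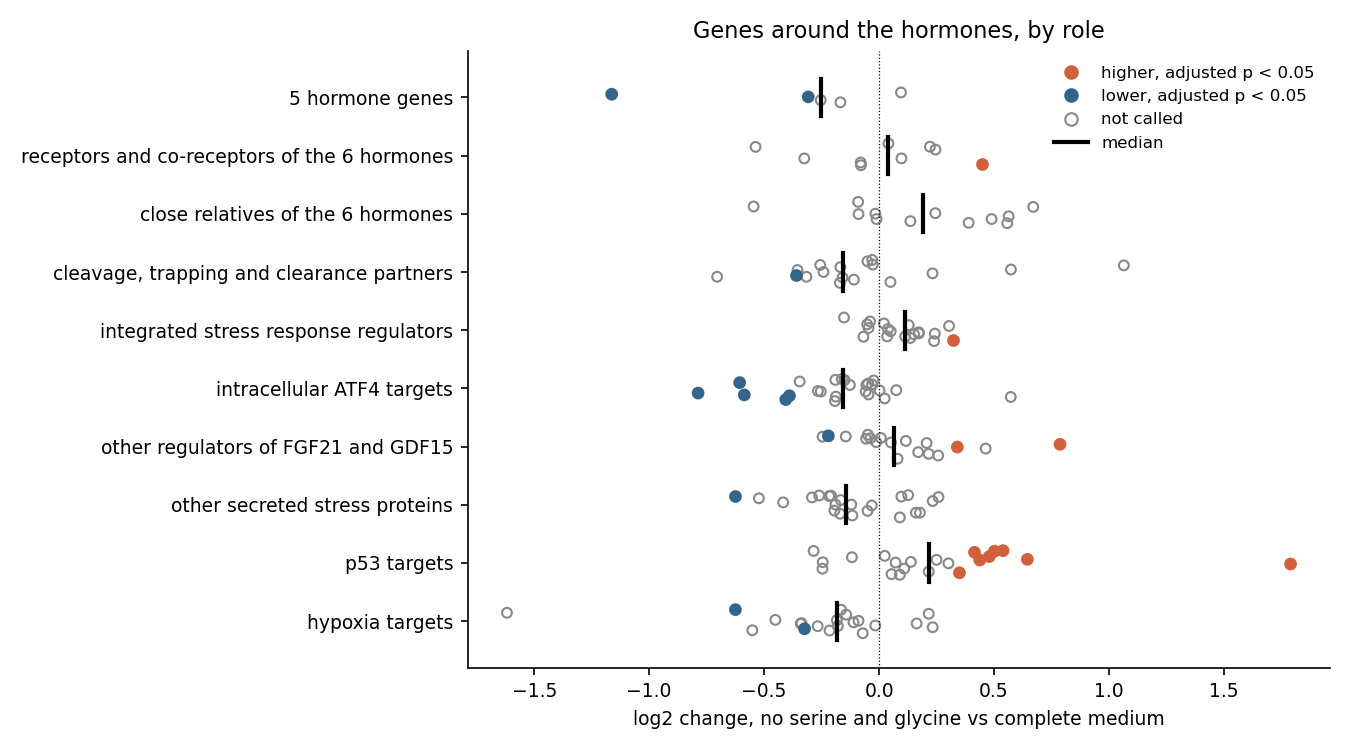
Log2 change (x axis) of each tested gene of the hormone group and of 9 lists of related genes, 1 circle per gene, orange where called higher, blue where called lower, open where not called, with the median as a bar. Of 24 intracellular ATF4 targets 5 are called lower, and of 21 p53 targets 8 are called higher.

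The regulators of the integrated stress response were mostly not called. Of 19 tested genes 1 was higher and 0 lower, with a median log2 change of 0.11. An unadjusted p under 0.05 was seen for 6 higher and 0 lower genes, while DESeq2 gave 3 higher and 0 lower, limma voom 1 and 0, and the block 4 and 0. EIF2AK2, the kinase that senses double-stranded RNA, rose by 0.32 on the log2 scale (adjusted p = 0.0435). ATF4 was at 832.6 and 955.3 TPM (log2 change 0.14, adjusted p = 0.396). ATF3, ATF5, DDIT3 and CEBPB had log2 changes of 0.04, -0.15, 0.02 and 0.11, with adjusted p of 0.856, 0.488, 0.890 and 0.574. TRIB3, a pseudokinase made under ATF4 and DDIT3, gave 0.24 on the log2 scale (adjusted p 0.0814, blocked 0.0273).

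Among intracellular ATF4 targets, 5 of 24 were lower and 0 higher, with a median log2 change of -0.16. Unadjusted, 9 were lower and 1 higher at p under 0.05, DESeq2 gave 8 and 1, limma voom 5 and 0, and the block 11 and 1. Over all genes the shares lower were 14.4% unadjusted, 6.57% by DESeq2, 3.9% by limma voom and 13.2% with the block. On length-scaled units 4 were lower on log2 FPKM, 1 on log2(TPM + 1) or log2(TPM + 0.1) and 0 on log2(TPM + 1) with no filter. In those fits 2.53, 0.809, 0.697 and 0% of all genes were called lower. The cystine importer SLC7A11 fell by 0.61, the glycyl-tRNA synthetase GARS1 by 0.41, the cystathionine lyase CTH by 0.39 and the gluconeogenic enzyme PCK2 by 0.79, with adjusted p of 0.0217, 0.0246, 0.0276 and 0.0339. ASNS, asparagine synthetase, fell by 0.59 (adjusted p = 0.0443) and is named after its values were seen. These falls lie between the change of STC2 and that of FGF21, and whether they differ from either was not tested. KLHL24 was the target higher before adjustment and with the block. Its log2 change was 0.57 (adjusted p 0.0511, blocked 0.00123), its media did not overlap, and it too is named after its values were seen.

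Other factors that act on FGF21 or GDF15 gave 2 higher and 1 lower of 18 tested, with a median log2 change of 0.07. Unadjusted, 5 were higher and 1 lower at p under 0.05, DESeq2 gave 2 and 1, and limma voom 1 and 1. With the block 5 were higher and 2 lower. PPARA, the fasting-activated receptor that raises FGF21 in liver, rose from 56.2 ± 5.63 to 71.2 ± 5.66 CPM (log2 change 0.34, adjusted p = 0.0483). RORA, a nuclear receptor with few reads, rose from 2.95 to 5.09 CPM (log2 change 0.79, adjusted p = 0.0265). TFE3, a lysosomal stress factor, fell by 0.22 (adjusted p = 0.0444).

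Some genes of the p53 target list rose, while GDF15, itself such a target, was not called. Of 21 tested genes, 8 were higher and 0 lower, with a median log2 change of 0.22. Before adjustment 10 were higher and 1 lower at p under 0.05, and DESeq2 and limma voom each gave 7 higher and 0 lower and the block 10 and 0. Over all genes the shares higher were 12.9% unadjusted, 4.42% by DESeq2, 2.46% by limma voom and 11.1% with the block. The count was lower on length-scaled units, with 4 higher on log2 FPKM, 1 on log2(TPM + 1) or log2(TPM + 0.1) and 0 on log2(TPM + 1) with no filter, where 1.45, 0.353, 0.304 and 0% of all genes were called higher. TP53INP1 rose by a log2 change of 1.79 at 0.461 and 1.61 CPM, ZMAT3 by 0.64, the cell cycle inhibitor CDKN1A by 0.50 and TIGAR by 0.41, with adjusted p of 0.0217, 0.0217, 0.0246 and 0.0251. Whether the change of GDF15, 0.10, differs from theirs was not tested.

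Of 22 tested genes listed as other secreted stress proteins, 1 was lower and 0 higher, with a median log2 change of -0.14. The list includes TNFRSF10B, which encodes a membrane receptor and is also in the p53 list (log2 change 0.09, adjusted p = 0.390). Unadjusted, 3 were lower and 2 higher at p under 0.05, DESeq2 gave 2 and 0, limma voom 1 and 0, and the block 6 and 1. The one was ANGPTL4, an inhibitor of lipoprotein lipase, which fell by 0.62 (adjusted p = 0.0320) from 6.97 ± 0.51 to 4.52 ± 0.24 CPM. It also belongs to the hypoxia list, where 2 of 20 were lower and 0 higher, with a median log2 change of -0.18, and the other was the glucose carrier SLC2A1, which fell by 0.32 (adjusted p = 0.0271). By unadjusted p under 0.05 the hypoxia list had 7 lower and 2 higher, and DESeq2 and limma voom each gave 2 lower and 0 higher. With the block the hypoxia counts were 7 lower and 2 higher. HIF1A had a log2 change of -0.18 (adjusted p = 0.324).

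Markers were read to place the cells. Of 10 epithelial markers 8 were tested, and 2 were lower and 0 higher by edgeR, DESeq2 and limma voom, with 3 lower and 0 higher at an unadjusted p under 0.05 and likewise with the block, which added KRT18 (log2 change -0.16, adjusted p 0.156, blocked 0.0342). Without both libraries numbered 1 there were 4 lower, in a fit where 15.5% of all genes were called lower. KRT7 and KRT19 fell by 0.47 and 0.48 (adjusted p = 0.0221 and 0.0217). The list summed to 4562 to 4947 TPM in complete medium and 3701 to 4096 TPM in the deprived medium, KRT5 was at 0.0967 and 0 TPM and CDH1 at 0.143 and 0.103 TPM, so 2 common epithelial markers were near absent. Of 10 macrophage and leukocyte markers, 6 were in the table and summed to 69.8 to 79.1 and 50.9 to 59.0 TPM. Of these, CD68, a lysosomal protein, made up 47.7 to 77.9 TPM and fell by 0.54 (adjusted p = 0.0217), while CD14, the one other marker tested, was higher in each deprived library, at 0.46 ± 0.24 and 1.22 ± 0.35 CPM (log2 change 1.39, adjusted p 0.0764, blocked 0.0404). By unadjusted p, and with the block, the list thus had 1 lower and 1 higher. PTPRC, the leukocyte antigen CD45, was at 0 TPM in complete medium and 0.0233 TPM in the deprived medium. Fibroblast and endothelial markers summed to 16.6 to 21.6 and 16.0 to 21.9 TPM, and hepatocyte markers to 3.72 to 3.94 and 4.08 to 5.65 TPM. Neither of these 2 lists had a called gene by edgeR without the block, DESeq2 or limma voom. With the block the fibroblast receptor PDGFRB was lower (log2 change -0.69, adjusted p 0.0840, blocked 0.0454) and the transferrin gene TF higher (log2 change 0.25, adjusted p 0.0699, blocked 0.0282), the same numbers in each direction, 1 and 1, as at an unadjusted p under 0.05. CD14, PDGFRB, TF and KRT18 are named after their values were seen. The part of these markers in the hormone values was not tested.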

How the data were processed

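RNA was measured in 6 libraries, 3 from each medium, grouped and numbered as in the sample titles. The submitters' processing notes name the GRCh38 build, RSEM 1.3.1 and Bowtie2 2.3.4.3, with no role or order, and the annotation and strand setting are not given in the sources used here. Per the file headers, the authors deposited estimated counts, FPKM and TPM for each gene. Estimated counts were rounded and fitted with edgeR 4.0.16 under R 4.3.3, using filterByExpr (minimum count 10, minimum total 15), TMM scaling with factors from 0.9782 to 1.025, a robust quasi-likelihood fit with medium as the one term, and Benjamini-Hochberg adjustment over the 12548 genes kept, with a call at an adjusted p under 0.05. CPM use TMM-scaled library sizes. The SE of a log2 change is its size divided by the square root of the F statistic, and thus derives from the test. The libraries held 16612196 to 17030355 counts. Exact Poisson intervals at 95 percent cover counting error only.

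The alternatives were RLE scaling, library totals, no low-count filter, a fit that is not robust, DESeq2 1.42.0, limma 3.58.1 with voom, limma on log2 FPKM or TPM with a pseudocount of 1 or 0.1 and a floor of 0.5, the replicate number as a block, each library left out, and both libraries numbered 1 left out. Libraries of the same number deviated together from their group means, with correlations across genes of 0.326, 0.141 and 0.19. Each is above 0.1, and the blocked value is printed where it changes the call of a named gene, with block counts for the lists. One pair of different number, library 3 of complete medium and library 2 of the deprived medium, reached 0.163, and the labels do not say what a shared number means.

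The hormone genes, the gene lists (receptors, relatives, partners, stress regulators, ATF4 targets, other regulators, secreted proteins, p53 targets, hypoxia targets and cell type markers) and the alternatives were chosen with earlier results of these data known. The genes named are the hormones, up to 4 called genes of each list by smallest adjusted p, a fixed set of receptors, partners and regulators, and the 3 genes nearest in pattern to each hormone. A single regulator was taken out of its list and has no values here. Promoters are RefSeq sequences on GRCh38.p14, cut to the 250 bases before the gene start and found for 4 of the 5 genes. RefSeq entries matched 16346 of the 16407 genes by NCBI Gene number. Ratios of 2 genes within a library were compared by exact permutation in Python 3.11.15 with scipy 1.17.1.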

Additional observations from a re-analysis of the deposited data

How the results depend on the processing

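Signs held for the 5 genes under all 18 alternatives, which reuse the same libraries, while calls moved. The count of members lower was 2, and was 1 with library totals and with limma on log2 FPKM, and 0 with limma on log2(TPM + 1), on log2(TPM + 0.1) and on log2(TPM + 1) with no filter on low values. With 1 library left out it was 0 to 2, and the count higher 0 to 1. Without both libraries numbered 1 the count higher was 1, since GDF15 then had a log2 change of 0.18. FGF21 was no longer called with limma on TPM (log2 changes of -0.94, -1.08 and -0.94 with adjusted p of 0.0535, 0.0536 and 0.0970). STC2 was not called with library totals (-0.28), on log2 FPKM (-0.28, adjusted p = 0.0706) or in the 3 fits on TPM (-0.25 each, adjusted p of 0.104, 0.106 and 0.152). The cause was not tested. FPKM and TPM have no TMM factor, and their fits tested other genes. With 1 library left out, the log2 change ranged from -1.37 to -0.99 for FGF21, from -0.36 to -0.24 for STC2, from -0.21 to -0.14 for ADM2, from -0.41 to -0.11 for INHBE and from 0.016 to 0.20 for GDF15. Over all genes, 343 were called higher and 529 lower, against 1387 and 1657 with the block, 1696 and 1947 without both libraries numbered 1, 172 and 301 on log2 FPKM, 44 and 101 on log2(TPM + 1), 38 and 87 on log2(TPM + 0.1), and 0 and 0 with no filter on TPM. With 1 library left out they were 0 to 758 and 0 to 979. The replicate block changed no call of the 5 genes. For FGF21, with 30 to 104 reads a library, depth limits the precision more than for the other 4 genes.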
